A study of Mus musculus with 35 samples.

Results

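CA1 pyramidal neurons are the excitatory output cells of hippocampal field CA1. They receive CA3 input through the Schaffer collaterals and send the result on to the subiculum and the entorhinal cortex, and they are among the neurons that carry tau inclusions in tauopathy models. Here they were chosen by the counts of marker genes, as nuclei with at least 4 unique molecular identifiers (UMIs, one count per captured transcript) of Mpped1, Fibcd1, Wfs1 and Gm2115 together, from at least 2 of these genes. Each nucleus also had to hold 1000 or more genes and a UMI of Slc17a7, the vesicular glutamate transporter of excitatory neurons. It could hold no more than 1 UMI of Prox1 (granule cells), 2 of Iyd and Ccbe1 (CA3), 3 of Pde11a and Dcn (ventral pyramidal cells), 2 of Gad1 and Gad2 (inhibitory neurons) and 2 of Mog and Mag (oligodendrocytes). These limits kept 7400 of 144991 barcodes, which is 6.03% of the 122747 barcodes with 1000 or more genes.

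The nuclei came from the frozen hippocampus of 14 C57BL/6 mice aged 9 months, 1 library per mouse and 1 female in each group. The 4 groups were wild type (WT, 3 mice), PS19 (3), the CLEAR mutant (CLEAR, 4) and the CLEAR mutant crossed with PS19 (CLEAR_PS19, 4). PS19 mice carry a mutant human tau transgene driven by the mouse prion protein promoter. The CLEAR mutant has an altered TFEB binding site, a CLEAR element, in Atp6v1h, as far as the study's design could be worked out. Atp6v1h encodes subunit H of the vacuolar ATPase (V-ATPase), the proton pump that acidifies lysosomes, and TFEB is a transcription factor that raises lysosomal genes. Bulk RNA-seq of 21 further hippocampi came from WT and PS19 mice, 6 and 6 at 4 months and 5 and 4 at 9 months. WT and PS19 can thus be compared with and without the mutation.

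The gate kept 670, 530 and 579 nuclei in WT libraries 1 to 3 and 532, 289 and 467 for PS19. The CLEAR libraries gave 577, 515, 437 and 567 and those of CLEAR_PS19 757, 708, 408 and 364. Median depth was 9964.5 to 18645.5 UMIs per CA1 nucleus, and the summed CA1 nuclei of a library held 3826976 to 10788075 UMIs. The bulk libraries held 9630430 to 17182605 counts. Of the nuclei that met the other limits, 2364 held 3 marker UMIs and stayed outside, 1928 held 4 and 1540 held 5. A further 1609 nuclei reached 4 UMIs from 1 gene only and were left out. Any pair of the 14 libraries shared 5 to 48 barcodes with 1000 or more genes (median 20), and CA1 barcodes were shared 7 times in all. CLEAR 1 and 2 and CLEAR_PS19 1 and 2 formed a set by their correlations with other libraries, so each count of genes called for a genotype was also taken without those 4. A doublet caller marked 5.15% to 12.4% of the CA1 nuclei of a library.

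CA1 markers that the gate had not read stood higher in sum in the gated nuclei than in the other classes. Genes of the superficial CA1 layer did not. The following levels are CPM (a gene's counts scaled to a common total per library) summed over the nuclei of a class, mean ± SD over 14 libraries, and they are a description because the gate selects on related genes. Mpped1, one of the genes of the gate, stood at 190.1 ± 16.6 CPM in CA1 nuclei, 4.21 in granule nuclei, 3.15 in CA3 nuclei and 87.8 in ventral pyramidal nuclei. Outside the gate, Man1a, a mannosidase of the Golgi, stood at 633 CPM in CA1, 333 in ventral, 104 in CA3 and 10.1 in granule nuclei. The transcription factor Pou3f1 stood at 23.7 CPM in CA1 nuclei, 13.8 in ventral, 1.89 in granule and 0.992 in CA3 nuclei. The 8 CA3 markers summed to 275 CPM in CA1 nuclei against 2692 in CA3 nuclei, and the granule markers to 73.5 against 3045 in granule nuclei. The gates set limits on genes of both kinds, so these sums are no check of the label. The subiculum and cortex markers, on which the gate set no limit, summed to 430.5 CPM in CA1 nuclei, 378 in ventral, 129.6 in granule and 125 in CA3 nuclei.

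The class called granule nuclei here was gated on Prox1, which other cells hold too. Its inhibitory neuron markers summed to 1719 ± 323 CPM, against 44.0 in CA1 and 195 in CA3 nuclei, and its astrocyte markers to 924 against 118.5 in CA1 nuclei. Values of this class are therefore those of nuclei with Prox1, not of granule cells alone.

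**Figure D1:**
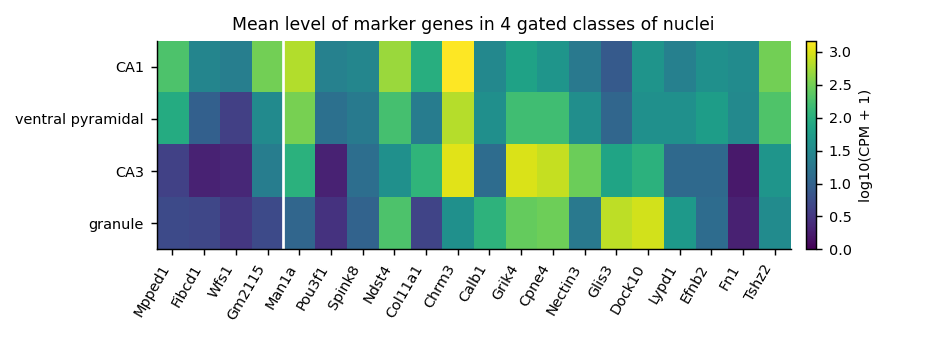
Mean level over 14 libraries of marker genes (columns) in the 4 gated classes of nuclei (rows), as the base-10 logarithm of CPM + 1 (colour). The 4 columns left of the white line are the genes of the gate. Man1a reaches 633 CPM in CA1 nuclei and 10.1 in granule nuclei.

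Nuclei with markers of the adjoining subiculum were inside the gate. Of the 7400 CA1 nuclei, 1282 (17.3%) held a UMI of Fn1 (fibronectin), Slc17a6 (the second vesicular glutamate transporter) or Nts (neurotensin), with 45 to 159 such nuclei per library. The difference in their other genes was described only, since the split was chosen after the values were seen. Brinp3 stood at 1221 CPM in these nuclei and 99.9 in the rest, and Tshz2, a zinc finger factor, at 1117 and 99.8. The CA1 gene Fibcd1 stood at 8.27 and 31.8 CPM, and Galntl6 at 1458 and 5252. Mpped1 and Gm2115 were near level, at 197 against 187 CPM and 297.5 against 311. Both genes are part of the gate that all these nuclei had passed.

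The counts of single genes varied among CA1 nuclei to different degrees. After each nucleus was thinned to 2000 UMIs, the ratio of variance to mean had a median of 1.07 over 1544 genes. The nuclear RNA Malat1 led with 16.6. It was followed by Dpp10 (12.9) and Kcnip4 (7.06), partners of A-type potassium channels, the synapse organizers Lrrtm4 (10.2), Tenm3 (5.53), Cntn5 (4.83), Cntnap2 (4.55) and Ptprd (4.43), and Galntl6 (5.67), Sgcz (5.48), Brinp3 (4.52) and Pcdh9 (4.31). Lrrtm4, Sgcz and Brinp3 were also higher in the nuclei with subiculum markers, at 5208 against 1193, 1946 against 204 and 1221 against 99.9 CPM.

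CA1 nuclei made up a smaller share of barcodes in mice with the tau transgene. The share of barcodes with 1000 or more genes was 6.68%, 7.39% and 7.49% in WT and 5.19%, 3.12% and 6.34% in PS19. It was 7.09%, 6.32%, 5.82% and 6.71% in CLEAR and 6.70%, 5.58%, 4.96% and 5.63% in CLEAR_PS19. All 3 PS19 libraries lay below all 3 WT libraries, while CLEAR_PS19 1 lay inside the range of the CLEAR libraries. With the transgene the share was lower by 1.53 percentage points averaged over both backgrounds (−1.53, adjusted p = 0.0171, exact two-sided permutation test over libraries, adjusted over 2 tests). The difference was −2.30 points without the mutation and −0.767 with it. Between libraries of the same number the carrier was lower in 7 of 7 pairs (p = 0.0156, exact sign flips over pairs, two-sided, the smallest they can give). These pairs were taken from correlations between the libraries and not from the labels. CLEAR 2 correlated with CLEAR_PS19 1 at 0.494 and with CLEAR_PS19 2 at 0.457. The share of CLEAR_PS19 1 was above that of CLEAR 2, so the count of 7 of 7 depends on the pairing.

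The lower share depended on what it was a share of. Of the barcodes with a UMI of Slc17a7, the WT libraries held 12.4%, 13.96% and 13.4% CA1 nuclei and the PS19 libraries 13.3%, 11.1% and 12.97%. The CLEAR libraries held 12.1%, 10.9%, 12.2% and 12.3%, against 11.5%, 9.60%, 12.1% and 10.1% for CLEAR_PS19. The ranges overlapped and the difference was −0.943 points (exact permutation, adjusted p = 0.0829), with the carrier lower in 6 of 7 pairs. Barcodes of 2000 or more UMIs were also thinned to 2000 before gating, with the marker limit lowered to 2 UMIs from 1 gene. The other limits stayed. There the difference was −0.0546 points (exact permutation, adjusted p = 0.871), but this gate kept only 0.47% to 2.72% of those barcodes. These points are therefore not on the scale of the others. Without WT 1, WT 2 or WT 3 the test on all barcodes gave an exact permutation adjusted p of 0.06 to 0.08. Of barcodes with 1000 or more genes, granule nuclei made up 8.82% to 11.5% in WT and 2.21% to 7.96% in PS19. CA3 nuclei made up 5.10% to 6.56% and 2.46% to 4.15%. Granule shares were 8.40% to 10.1% in CLEAR and 5.71% to 8.31% in CLEAR_PS19. CA3 shares there were 4.33% to 5.60% and 3.71% to 6.115%. Ventral shares overlapped on both backgrounds. The median depth of these barcodes was 7038.5 to 9188.5 UMIs in WT and 4596 to 6269 in PS19, and overlapped with the mutation. The part of the other cell types and of depth in the lower CA1 share was not tested. For the CLEAR mutation the difference was 0.0651 points (exact permutation p = 0.915). With the Slc17a7 denominator it was −1.49 points (exact permutation, adjusted p = 0.0343).

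The genes of CA1 nuclei that changed with genotype were counted next. Counts were summed per library and fitted with edgeR's quasi-likelihood test with sex as a covariate, with Benjamini-Hochberg adjustment over 15789 genes, and a gene was called at an adjusted p under 0.05. PS19 against WT gave 22 called genes (0.139% of those tested), 20 higher and 2 lower. CLEAR_PS19 against CLEAR gave 4 (0.0253%), all higher. The transgene effect averaged over both backgrounds gave 46 (0.291%), 39 higher and 7 lower. CLEAR against WT, CLEAR_PS19 against PS19 and the averaged mutation effect gave 1 each (0.00633%), the same gene each time. The interaction of transgene and mutation gave 0 (0%) by edgeR and 0 by DESeq2, with 582 genes at an unadjusted p under 0.05. The count for PS19 against WT was 3 without WT 2 or PS19 1, 10 without WT 1, 11 without WT 3, 8 without PS19 2, 13 without CLEAR_PS19 2 and 49 without PS19 3, so it rested on single libraries. The averaged count was 13 to 29 without WT 1, 2 or 3, PS19 1 or 2, CLEAR 1 or 4 or CLEAR_PS19 1 or 2. CLEAR_PS19 against CLEAR gave 14 without CLEAR_PS19 4, and CLEAR_PS19 against PS19 gave 24 without CLEAR_PS19 3, 19 without PS19 3 and 9 without CLEAR_PS19 4. For PS19 against WT DESeq2 called 78 genes, and for the averaged transgene effect 90. Libraries of the same number were taken as pairs within each background, and with that number as a block PS19 against WT gave 68 genes, among them all 22. CLEAR_PS19 against CLEAR gave 10 with the block, 3 of them shared, and the averaged effect 108, 43 of them shared. Of the 15776 genes outside the gate in the fit reported, the block called 65 (0.412%), 10 (0.0634%) and 101 (0.64%) in that order. The rest of the 68 and 108 were genes of the gate or genes tested only with the block.

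The gene that marked the mutation was Atp6v1h itself (ENSMUSG00000033793, chr1:5070018-5162529 in GRCm38, overlapping Rgs20 on the other strand). Its level was 119, 112 and 103 CPM in WT and 126, 113 and 111 in PS19. It was 67.8, 65.8, 69.1 and 65.2 CPM in CLEAR and 61.2, 70.6, 67.5 and 69.0 in CLEAR_PS19. No library with the mutation reached one without it. The averaged log2 fold change was −0.77 (SE 0.061, adjusted p = 6.14e-06, edgeR), with −0.74 without the transgene and −0.81 with it, and the call held under every alternative tried. Of the other 17 V-ATPase genes among 18 tested none was called, and the median over all 18 was 0.12 against 0.01 over all genes.

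The mutation moved no other list past the threshold in CA1 nuclei. Among 54 lysosomal genes, the class TFEB is known for, 0 were called by edgeR for the averaged mutation effect, with a median log2 fold change of 0.04. Among 55 genes of oxidative phosphorylation 0 were called, with 49 positive values and a median of 0.285. Their summed level was 1506 and 1600 CPM in CLEAR 1 and 2, and 1770 and 1745 in CLEAR_PS19 1 and 2, the 4 libraries that formed a set. It was 1323 and 1153 CPM in CLEAR 3 and 4, 1360 and 1136 in CLEAR_PS19 3 and 4, and 1115 to 1376 in the libraries without the mutation. The 4 libraries of the set thus stood above all others, and the part of the set in the median was not tested. Over all genes 1730 had an unadjusted p under 0.05. The genes next to the threshold in CLEAR against WT were Maml3, a Notch coactivator (−0.70, adjusted p = 0.0669), and Mcmdc2, Gm10457 and 6330576A10Rik (each 0.885). In CLEAR_PS19 against PS19 those near it included the apolipoprotein Apoe (−1.05, adjusted p = 0.0879), Oasl2 (−4.97, 0.102) and Lrmda (−1.18, 0.148). None of these passed in the fit reported, but Apoe was called in 9 of 27 alternatives, Maml3 in 8, Lrmda in 5 of 27 and Oasl2 in 5 of 24.

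The transgene was marked by Prnp, the prion protein gene whose promoter it carries (chr2:131909928-131938429, overlapping Prn on the same strand). Prnp stood at 64.7, 73.2 and 60.7 CPM in WT and 114, 136 and 104 in PS19. It stood at 83.3, 77.4, 64.8 and 68.5 CPM in CLEAR and 181, 184, 128 and 103 in CLEAR_PS19. Every library with the transgene lay above every library without it, and the averaged log2 fold change was 0.92 (SE 0.10, adjusted p = 3.24e-04, edgeR). Mouse Mapt, the tau gene itself, stood at 254, 278 and 270.0 CPM in WT and 288, 302 and 269 in PS19, and was not called in any comparison of CA1 nuclei. In bulk hippocampus Prnp was higher by a log2 fold change of 1.21 at 9 months and 1.22 at 4 months, and Mapt by 0.47 and 0.60.

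For the averaged transgene effect the largest fitted changes were those of 3 neighbouring long noncoding RNAs of chromosome 3. Gm43049 (chr3:140692038-140760704) stood at 0 CPM in all 3 WT libraries and 0 to 0.245 in CLEAR. It stood at 128, 112 and 184 CPM in PS19 and at 143, 128, 108 and 186 in CLEAR_PS19. Against the floor of 3 counts over the WT group, its level in PS19 was 1380-fold higher (lower end of the 95% counting interval 1120). Gm32754 (chr3:140904998-140917459) had 422 counts in PS19 and 1 in WT, a ratio of 614 (95% counting interval 110 to 24300). It had 545 in CLEAR_PS19 against 0 in CLEAR, 190-fold higher against the same kind of floor (lower end 154). The third, 4930590L14Rik (chr3:140951876-140953247), had 87 counts in CLEAR_PS19 and 0 in CLEAR, 30.4-fold higher against that floor (lower end 24.2). Its call in CLEAR_PS19 against CLEAR ended with the replicate block (adjusted p = 0.0972, edgeR) and without any 1 of 8 libraries. These 3 genes lie within 261 kb, and the netrin receptor gene Unc5c begins 512 kb beyond them.

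**Figure D2:**
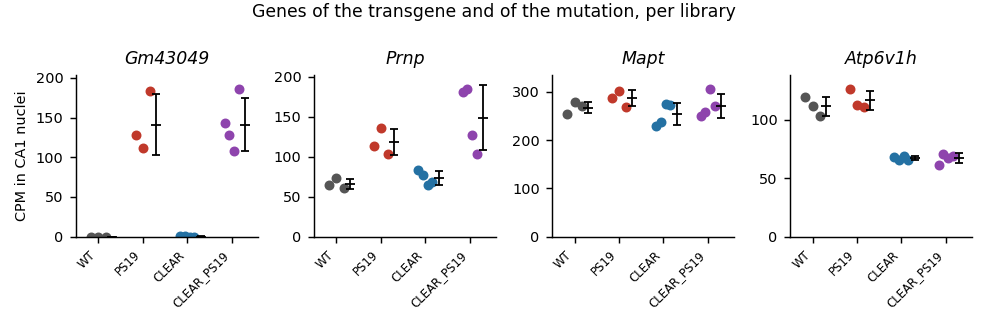
CPM in summed CA1 nuclei of each library (points) with the mean and SD of each group (bars) for Gm43049, Prnp, Mapt and Atp6v1h. Gm43049 is at 0 to 0.245 CPM without the transgene and 108 to 186 with it, and Atp6v1h is at 61.2 to 70.6 CPM with the mutation and 103 to 126 without it.

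The 7 genes called lower for the averaged transgene effect were Unc5c, Kirrel3, Myo16, Tubd1, Zbbx, Srebf2 and Fads2. Unc5c (chr3:141465216-141834924), which steers axons in response to netrin, stood at 725, 597 and 512 CPM in WT and 428, 394 and 387 in PS19, and at 488, 509.7, 665 and 613 in CLEAR against 342, 354, 383 and 449 in CLEAR_PS19. The groups did not overlap on either background. Its averaged log2 fold change was −0.59 (SE 0.10, adjusted p = 0.0215, edgeR). The call was lost without WT 1, WT 2, any PS19 library, CLEAR 4 or CLEAR_PS19 2, where the adjusted p was 0.051 to 0.075, and the value stayed between −0.52 and −0.62 there.

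Kirrel3, an adhesion molecule of hippocampal synapses, stood at 537, 539 and 675 CPM in WT and 308, 266 and 496 in PS19. In CLEAR it stood at 401, 429, 490.0 and 716 and in CLEAR_PS19 at 388, 328, 283 and 727, where the highest library of each group was its female. The averaged log2 fold change was −0.53 (adjusted p = 0.0409, edgeR), and the call ended in 19 of 27 alternatives, the replicate block among them (adjusted p = 0.052). Myo16, a myosin of neurons, stood at 81.9, 84.2 and 91.1 CPM in WT and 42.1, 52.9 and 64.8 in PS19, with a log2 fold change of −0.72 (adjusted p = 0.0451), and its call ended in 15 of 27 alternatives, among them those without WT 1 or 2, any PS19 library, CLEAR 2 or 4, or CLEAR_PS19 1, 2 or 4. In CLEAR it stood at 55.4, 59.4, 73.3 and 97.9 CPM and in CLEAR_PS19 at 61.6, 58.5, 50.5 and 86.1, and these groups overlapped. Its averaged value was −0.43 (adjusted p = 0.0465, edgeR), a call that ended in 18 of 27 alternatives, among them without any 1 of 13 libraries. Tubd1 (−0.46), Zbbx (−0.41) and Srebf2 (−0.42) were lower as well. The call of Tubd1 ended in 19 of 27 alternatives and was kept with 1 library left out only for CLEAR 3 or CLEAR_PS19 3, and that of Zbbx ended in 20, among them without any 1 of the 14 libraries. In bulk hippocampus at 9 months Kirrel3 was lower (−0.24, adjusted p = 0.0202), Unc5c did not pass (−0.33, adjusted p = 0.0599) and Myo16 stood at −0.07.

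Srebf2 encodes the transcription factor that switches on cholesterol synthesis and uptake, and it fell beside a list whose other genes did not pass by themselves. Srebf2 (chr15:82147181-82205379) stood at 58.9, 47.8 and 65.3 CPM in WT and 38.7, 33.0 and 45.7 in PS19. It stood at 61.8, 54.1, 48.8 and 67.2 CPM in CLEAR and 49.0, 47.3, 42.7 and 48.0 in CLEAR_PS19. Without the mutation the libraries with the transgene lay below all those without it, and with the mutation CLEAR_PS19 1 reached just above the lowest CLEAR library. The transgene effect was a log2 fold change of −0.42 on average (SE 0.078, adjusted p = 0.031, edgeR). The value stayed between −0.37 and −0.47 under 27 alternatives, of which 14 put the adjusted p at 0.05 to 0.16, among them leaving out WT 1, WT 3, PS19 1, PS19 2, CLEAR 1, CLEAR 4, CLEAR_PS19 2 or CLEAR_PS19 4. Fads2, a desaturase of long fatty acids outside the list, stood at 5.08 to 6.80 CPM in WT and 1.79 to 3.35 in PS19, and was not called between these groups alone. Averaged over both backgrounds it fell by 0.86 on the log2 scale (adjusted p = 0.031, edgeR). Its call ended in 16 of 27 alternatives, among them those without any WT library, PS19 2 or 3, CLEAR 1, 2 or 4, or CLEAR_PS19 2 or 4. At a marker sum of 2 or more it stood at −0.38 (adjusted p = 0.257).

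Of 24 cholesterol genes tested, 23 had a negative averaged transgene effect, with a median of −0.39 against 0.001 over all genes, and 1 (Srebf2) was called, where 0.291% of all genes were. With the replicate number as a block Srebf2 was also called lower in PS19 against WT alone. There 0.412% of the 15776 genes outside the gate in the fit reported were called. Idi1 was then called lower on average too, where 0.64% of the same 15776 genes were. Msmo1, a sterol oxidase, stood at 29.0, 15.8 and 10.7 CPM in WT and 6.59, 9.38 and 10.3 in PS19 (−0.73, not called). Idi1 (−0.97) and Hmgcs1 (−0.57), enzymes of the same pathway, had negative values that did not pass without the block. The median was −0.54 without the mutation and −0.20 with it. The interaction, which tests that difference gene by gene, had 20 of 24 positive values, a median of 0.33 and 0 called genes by edgeR.

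The summed level of the 10 astrocyte markers, cells that also make cholesterol, was 107 to 174 CPM in WT CA1 nuclei, 107 to 142 in PS19, 90.7 to 160.0 in CLEAR and 80.7 to 129 in CLEAR_PS19, with no marker at 0, and its part in the lower cholesterol genes was not tested. In bulk hippocampus at 9 months, where 12.7% of 16133 genes were called, 12 of 24 cholesterol genes were lower and the median was −0.30. Srebf2 stood at 218, 220.5, 273.5, 222.5 and 272 CPM in WT and 194, 176, 164 and 202 in PS19, again without overlap (−0.39, adjusted p = 4.2e-04, edgeR). Fdft1 (−0.42) and Hmgcs1 (−0.47) were lower too. In bulk tissue fewer cells of a type and less RNA per cell cannot be told apart. At 4 months, where 0.0248% of genes were called, 1 gene of the list was higher and the median of the list was 0.12.

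**Figure D3:**
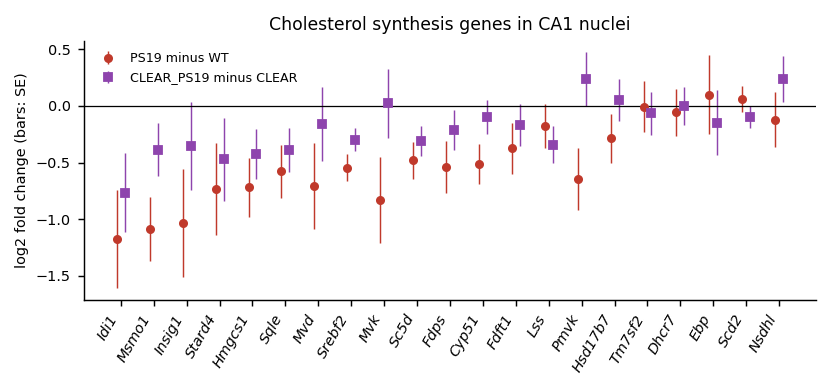
Log2 fold change (points) with its standard error (bars) of 21 of the 24 cholesterol genes in CA1 nuclei, for PS19 minus WT (circles) and CLEAR_PS19 minus CLEAR (squares). Of the genes drawn, 19 lie below 0 in the first comparison and 17 in the second, and none was called in either alone without a block.

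Interferon-induced genes were among those that rose in PS19 nuclei. Interferons bind receptors whose signalling switches on genes that sense viral RNA and genes of class I antigen presentation. Of the 38 genes listed for this response, 22 passed the filter on low counts and 3 were called higher in PS19 against WT (0.139% of all genes were called). The genes that passed the filter include some, such as Oasl2, with counts almost only in PS19. Oasl2, an antiviral relative of the oligoadenylate synthetases (chr5:114896936-114912234), stood at 0, 0 and 0.119 CPM in WT and 3.57, 17.2 and 1.54 in PS19, with PS19 2 far above the others. Its counts were 119 against 1, a ratio of 173 (95% counting interval 30.5 to 6890, adjusted p = 0.025, edgeR). Ddx60, a helicase that aids RNA sensing, stood at 0.474, 0.199 and 0.597 CPM in WT and 4.69, 12.5 and 1.54 in PS19 (3.70, adjusted p = 0.0451). B2m, the light chain of class I molecules, stood at 1.42, 2.69 and 1.67 CPM in WT and 5.58, 8.04 and 4.01 in PS19 (1.57, adjusted p = 0.0451). With the replicate number as a block 6 of 25 tested were called higher, among them Ifih1, H2-D1 and H2-K1 beside these 3. Of the 15776 genes outside the gate in the fit reported 0.412% were then called, a set without the list genes tested only with the block.

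With the mutation no gene of the list was called, and the difference itself did not pass. In CLEAR_PS19 Oasl2 stood at 0.0874, 0, 0.968 and 0 CPM against 0 to 0.265 in CLEAR, and of the list 0 genes were called in CLEAR_PS19 against CLEAR and 0 for the interaction by edgeR. Oasl2 lost its call without WT 1, WT 2 or PS19 2 (adjusted p up to 0.25). Ddx60 lost it without any WT library or without PS19 1, PS19 2, CLEAR 2 or CLEAR_PS19 1, 2 or 4. B2m lost it without any WT library, without PS19 1 or 2, CLEAR 1, 2 or 3, or CLEAR_PS19 1 or 2. In bulk hippocampus 34 of 37 tested genes of the list were higher at 9 months (median 1.62), where 12.7% of all genes were called, and 0 at 4 months (median −0.52), where 0.0248% were. PS19 replicate 5 at 9 months had 76.5 CPM of Oasl2 and the other 3 had 5.16 to 12.7, and at 4 months WT replicate 4 stood high (18.8 CPM).

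The window of 250 bases upstream of the start of each gene (RefSeq, GRCm38.p6) was searched on both strands for the core of the interferon-stimulated response element, GAAA followed by any 2 bases and a second GAAA. It was present in 2.98% of 32851 windows and in 11 of the 30 listed genes that matched the table (36.7%). A listed gene counted if any of its windows held the core, so these percentages, of windows and of genes, are unlike measures. Ddx60 and B2m are printed since both rose and both windows hold it, with the matches in capitals, 5′ to 3′ on the strand of the gene. The window of Ddx60 (chr8:61927837-61928086, plus strand) has 2 matches and that of B2m (chr2:122147437-122147686, plus strand) has 1.
Ddx60: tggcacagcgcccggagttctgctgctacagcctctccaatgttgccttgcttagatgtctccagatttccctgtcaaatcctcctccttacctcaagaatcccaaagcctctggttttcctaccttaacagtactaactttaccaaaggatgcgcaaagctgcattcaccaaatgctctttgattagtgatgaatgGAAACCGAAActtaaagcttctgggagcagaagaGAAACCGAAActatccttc
B2m: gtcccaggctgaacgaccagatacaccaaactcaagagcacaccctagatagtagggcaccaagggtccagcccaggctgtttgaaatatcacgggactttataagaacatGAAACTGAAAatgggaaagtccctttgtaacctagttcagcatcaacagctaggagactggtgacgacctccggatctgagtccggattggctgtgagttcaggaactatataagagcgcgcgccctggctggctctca
The window of Oasl2 has 0 matches. The same search for TCACNCCAC, a sterol regulatory element, found it in 1.05% of all windows, in 1 of 16 matched cholesterol genes (6.25%, Hmgcs1) and with 0 matches in that of Srebf2. Here too the first percentage is of windows and the second of genes. Such matches are letters in a window and say nothing of binding.

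The interferon genes were concentrated in few nuclei. Nuclei with 3 or more UMIs from at least 2 of Ifit1, Ifit2, Ifit3, Ifit3b, Isg15, Rsad2, Oasl2, Usp18 and Irf7 were counted, a limit chosen after the values were seen, and so the counts are a description. They numbered 9, 21 and 2 in the 3 PS19 libraries (32 of 1288 CA1 nuclei, 2.48%) and 0, 1, 3 and 1 in CLEAR_PS19 (5 of 2237, 0.224%). None was found in WT (0 of 1779, which allows up to 0.169%) or CLEAR (0 of 2096, up to 0.143%). These limits pool the nuclei of 3 and 4 mice and cover counting error only, so they do not bound the share in other mice, and between the PS19 libraries it ran from 0.428% to 7.27%. Among granule nuclei there were 4 of 2596 in WT and 7 of 1438 in PS19, and among CA3 nuclei 0 of 1426 and 10 of 938. Median depth in PS19 libraries was 13439 to 15847 UMIs in CA1, 7603.5 to 9678 in granule and 16496.5 to 20270.5 in CA3 nuclei. At 2000 UMIs per nucleus the limit was looser, 2 or more UMIs of these genes from any number of them. There 7 CA1 nuclei of PS19 met it and 0 of each other group. Of CA3 nuclei 4 of PS19 did and 0 of each other group, and of granule nuclei 2 of WT, 5 of PS19, 0 of CLEAR and 5 of CLEAR_PS19 did.

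Of 29 listed genes that had not been used to choose them, 25 stood higher in the 32 PS19 nuclei than in the other PS19 CA1 nuclei and 4 lower, Tap2, Psmb9, Ifi44 and Zbp1, each with 0 UMIs in the 32. Stat2, a transcription factor of interferon signalling, stood at 183 CPM there and 30.3 in the other PS19 CA1 nuclei, Rnf213, a ubiquitin ligase, at 179 and 7.07, and Ifih1, a sensor of double-stranded RNA, at 62.8 and 0.909. Ddx60 stood at 89.7 and 2.93 CPM and B2m at 25.1 and 4.95. Of the 32 nuclei 21 came from PS19 2, and within that library Stat2 stood at 205 and 35.6 CPM, Ifih1 at 71.1 and 0.706 and B2m at 26.3 and 6.12. Of the 37 nuclei in all groups 8 were called doublets and 23 held 4 or fewer microglia marker UMIs. Of the 32 PS19 nuclei 6 were called doublets, against 7.50% to 9.00% of all CA1 nuclei in the PS19 libraries. Only 19 of the 32 held 4 or fewer microglia marker UMIs, and 20.99% to 28.95% of all CA1 nuclei there held more. With all 37 nuclei removed the log2 fold change of B2m was 1.41 (adjusted p = 0.0801, edgeR) in PS19 against WT. That of Ddx60 was 2.81 (adjusted p = 0.0819), and neither passed. On average over both backgrounds both kept their calls, at 1.07 (adjusted p = 0.0257) and 2.25 (adjusted p = 0.0309).

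**Figure D4:**
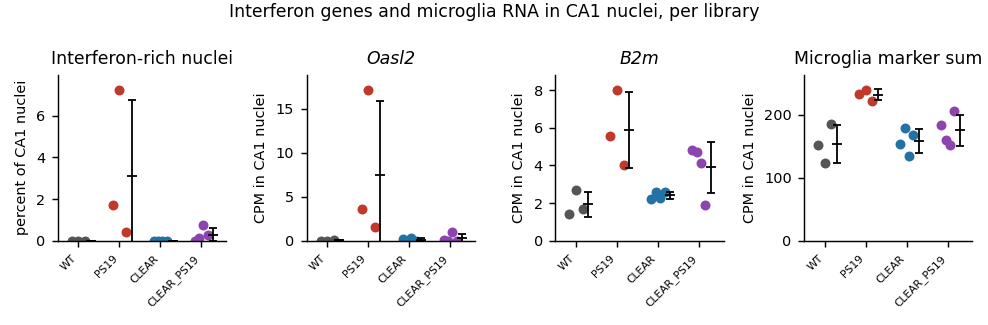
Values per library (points) with the mean and SD of each group (bars) for the percent of CA1 nuclei rich in interferon genes, the CPM of Oasl2 and B2m, and the summed CPM of 12 microglia markers. The PS19 libraries hold 1.69%, 7.27% and 0.428% interferon-rich nuclei, and their microglia sums are 223 to 240.2 CPM against 124 to 186 in WT.

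Genes that microglia, the immune cells of the brain, are known for were among those that rose in PS19 CA1 nuclei. C1qb and C1qc (complement), Tyrobp (an adaptor of Trem2), Ctss (a lysosomal protease), Ly86, Cd84, Fyb and Ikzf1 had log2 fold changes between 1.92 and 2.88 and were called by edgeR. The calls of C1qc, Ly86, Cd84, Fyb and Ikzf1 each ended without PS19 1 or PS19 2, without WT 2 or WT 3, and at a marker sum of 2 or of 6, and Fyb stood at −0.00618 (adjusted p = 1) with called doublets removed. Ly86 stood at 1.14, 1.39 and 0.716 CPM in WT and 5.80, 8.71 and 8.64 in PS19. C1qb stood at 1.14, 0.299 and 1.31 CPM in WT and 7.25, 8.26 and 4.32 in PS19. Of 10 microglia markers tested 2 were called (C1qb and Tyrobp) against 0.139% of all genes, and the 10 are those that passed the filter on low counts. The call of Tyrobp ended in 17 of 26 alternatives, among them those without WT 1 or 2, PS19 1 or 2, any CLEAR library or CLEAR_PS19 1, 2 or 4. Their 12-gene sum was 124 to 186 CPM in WT, 223 to 240.2 in PS19, 134 to 179.6 in CLEAR and 152 to 206 in CLEAR_PS19, with no marker at 0. Over all 14 libraries the sum averaged 178 CPM in CA1, 198 in CA3 and 291.5 in granule nuclei, classes that should lack these genes. In bulk hippocampus at 9 months, where 12.7% of all genes were called, 12 of 12 microglia markers were higher, with a median of 1.02. The share of CA1 nuclei with over 4 microglia UMIs was 11.3% to 17.8% in WT, 20.99% to 28.95% in PS19, 10.5% to 16.5% in CLEAR and 8.76% to 14.95% in CLEAR_PS19.

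Without those nuclei 3 genes were called in PS19 against WT, namely Gm43049, Gm32754 and Ctss (2.29, adjusted p = 0.0238, edgeR). C1qb stood at 2.24 (adjusted p = 0.127) and C1qc at 2.48 (adjusted p = 0.105), and neither passed. The nuclei were removed by their UMIs of the microglia markers, C1qb among them, so for those genes the removal acts on the value tested. The averaged effect kept 9 there, among them Ctss (1.51), C1qb (1.66, adjusted p = 0.0421) and C1qc (2.10, adjusted p = 0.0151). Lrmda, called at 1.41 with all nuclei, stood at 0.70 (adjusted p = 0.96). With doublets removed Lrmda stood at 0.41 (adjusted p = 1). The fold changes of B2m (1.66, adjusted p = 0.23), Ddx60 (3.87, 0.12) and C4b (3.37, 0.061) were as large without those nuclei, though none passed. Oasl2 fell below the filter on low counts there and was not tested. C4b, complement component 4, stood at 0.284, 0.299 and 0.597 CPM in WT and 3.57, 2.90 and 2.62 in PS19 (2.98, adjusted p = 0.00903 with all nuclei), and at 0.415 to 1.09 in CLEAR_PS19. With all nuclei this call ended without any 1 of 3 libraries (adjusted p 0.064 to 0.091, edgeR). The call of Ctss in PS19 against WT also ended without any 1 of 3. For the averaged effect the call of C4b ended without any 1 of 12 libraries (adjusted p up to 0.136, edgeR). Apod, a lipid carrier, stood at 12.8, 5.38 and 9.30 CPM in WT and 20.3, 28.8 and 17.6 in PS19, and Car4, a carbonic anhydrase, at 11.6, 10.8 and 14.8 against 19.2, 21.2 and 25.8. Both rose on average over the backgrounds (1.01, adjusted p = 0.0206, and 0.81, adjusted p = 0.0376). Without CLEAR 1 and 2 and CLEAR_PS19 1 and 2, neither passed, at 0.90 (0.30) and 0.51 (0.25). The call of Car4 ended in 19 of 27 alternatives, the replicate block among them (adjusted p = 0.0587, edgeR), and that of Apod in 5, without PS19 1 or PS19 2 among them.

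For the averaged transgene effect 0.291% of all genes were called, so that lists of this size hold none or few at that share. By edgeR 0 genes were called among 59 voltage-gated and excitability channels, 34 genes of presynaptic release, 38 of the postsynaptic density and 43 of tau and microtubules, nor among glutamate receptors, GABA receptors, chaperones, stress responses or autophagy. Over all genes 968 had an unadjusted p under 0.05 for the averaged transgene effect and DESeq2 called 90. The CA1 markers outside the gate held none either. With the replicate number as a block 1 of the channels, Cacna1g, was called lower in PS19 against WT, and 1 of the chaperones, Cryab, was called higher there and on average.

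Immediate early genes, which neurons switch on within minutes of firing, had 0 called genes of 29 tested in CLEAR_PS19 against CLEAR by edgeR, where 0.0253% of all genes were called. Of these 26 had negative values, with a median of −0.27. Npas4 stood at 28.01, 33.7, 28.1 and 43.7 CPM in CLEAR and 16.4, 14.7, 18.1 and 13.6 in CLEAR_PS19, without overlap (−1.05, adjusted p = 0.051). Arc stood at 54.7, 56.3, 37.2 and 44.96 CPM in CLEAR and 18.4, 20.1, 40.0 and 15.3 in CLEAR_PS19 (−1.06, not called). In PS19 against WT the median was −0.03. There Npas4 stood at 33.0, 22.2 and 31.1 CPM in WT and 40.7, 24.3 and 32.6 in PS19, and the groups overlapped. Npas4 had one of the smallest unadjusted p-values of the interaction (−1.25, adjusted p = 0.788) and did not pass.

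The transgene effect in CA1 nuclei was set against that in granule nuclei of the same libraries with limma on the difference of log2 CPM (prior count 2). It differed for 32 of 14642 genes (0.219%), with the CA1 effect above that of granule nuclei for 8 and below it for 24. With the replicate number as a block 2 differed, Gm43049 (adjusted p = 0.0374, limma) and Asb11. The part of the inhibitory and glial cells among the nuclei gated on Prox1 in these differences was not tested. Most of the named genes had the larger change in granule nuclei. Hpca, the calcium sensor hippocalcin, stood at 46.4 to 73.8 CPM in granule nuclei with the transgene and 27.8 to 42.9 without it, against 48.2 to 95.4 and 59.6 to 81.8 in CA1 nuclei (difference −0.70, adjusted p = 0.015). Hectd2, a ubiquitin ligase, stood at 181 to 326 against 115 to 156 CPM in granule nuclei and 90.6 to 133 against 99.6 to 131 in CA1 (difference −0.93, adjusted p = 0.0154). It overlaps Hectd2os on the other strand, whose difference was −0.91. The calcium channel Cacna1g (−1.08), the kinase Camk4 (−0.89), Neurod2 (−0.59) and Smad7 (−0.64) had the same direction, and the cadherin Cdh22 the opposite one (0.84), with lower levels in granule nuclei of carriers.

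Gm43049 stood at 108 to 186 CPM in CA1 and 64.3 to 117 in granule nuclei of carriers. Without the transgene it was at or near 0 in both, so the fitted size of its difference depends on the prior count and is not given. Gm15155 on the X chromosome, which overlaps Gm15160, was called higher in CA1 nuclei (0.71, adjusted p = 0.033, edgeR) and stood at −0.78 in granule nuclei. The call in CA1 nuclei ended in 15 of 27 alternatives, among them without any 1 of 9 libraries. Without CLEAR 1 and 2 and CLEAR_PS19 1 and 2 only 1 gene differed, and leaving out any single library gave 12 to 34. The effect of the mutation differed between CA1 and granule nuclei for 0 genes (0%) by limma, with 861 at an unadjusted p under 0.05. Atp6v1h was lower by 0.77 on the log2 scale in CA1 and by 1.24 in granule nuclei (−0.77 and −1.24), and the difference of 0.46 did not pass (adjusted p = 0.181), though it did with genes of 10 CPM or more in both classes alone (0.47, adjusted p = 0.024, limma). Against CA3 nuclei 0 of 14872 genes (0%) differed by limma for the transgene and 0 for the mutation, with 1119 and 894 at an unadjusted p under 0.05.

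Within CA1, nuclei with much Calb1 were compared with nuclei without it. Calbindin, the calcium buffer Calb1 encodes, is known to mark the superficial layer of CA1 pyramidal cells. Nuclei were thinned to 8000 UMIs, which kept 6589, of which 315 held 2 or more Calb1 UMIs (4 to 41 per library) and 5528 held none. Calb1 stood at 29.2 CPM in all CA1 nuclei, 12.1 in CA3 and 111 in granule nuclei. The paired edgeR fit called 758 of 12263 genes (6.18%), 191 higher and 567 lower in the Calb1-rich nuclei (25.2% higher). With RLE size factors, another scaling, the split was 348 to 361 (49.1% higher), and 552 genes were called both ways.

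Calb1-rich nuclei were higher in Kirrel3 in 14 of 14 libraries, at 902 against 410.2 CPM (1.098, SE 0.066, adjusted p = 4.27e-58). The BMP receptor Bmpr1b (1.81), the small-GTPase regulator Arhgef6 (1.23), the Notch coactivator Maml2 (1.16), the proteoglycan Spock1 (1.08), the sialyltransferase St6gal1 (1.03) and Tspan33 (1.03) were higher too. Of 2 genes of the superficial layer tested 0 were called by edgeR, with a median of 0.10. Of 6 genes of the deep layer tested 4 were lower, and of 10 CA1 markers outside the gate 4 were lower with a median of −0.30, where 6.18% of all genes were called and their median was −0.06. Of 4 granule markers 0 were called by edgeR, with a median of 0.55. Among the genes of the deep layer Col11a1, a collagen, stood at 22.3 against 119 CPM (−2.37), and Ndst4, an enzyme of heparan sulphate, was lower too (−1.87). Of 56 channels 5 were higher and 14 lower, with Cacna1c (0.41) and Kcnt2 (0.52) higher and Kcnip4 (−0.80) and Kcnh7 (−0.70) lower. Of 37 postsynaptic genes 1 was higher and 10 lower, among them Lrrtm3 (−1.59) and Lrrtm4 (−1.07).

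Subiculum markers moved with the same split, and 4 of 8 were lower. Fn1 stood at 2.11 against 38.3 CPM (−4.31), Slc17a6 at 0 against 14.8, and Nts and Tshz2 (−1.90) were lower as well. Outside that list Brinp3 stood at 64.1 against 358.5 (−2.50, lower in 14 of 14 libraries), Rxfp1, a relaxin receptor, at 7.93 against 65.3 (−2.82) and Sgcz at 116 against 581 (−2.34). With the nuclei holding a UMI of Fn1, Slc17a6 or Nts removed, 541 genes were called, 433 of them shared with the fit on all nuclei. Kirrel3 (0.99), Bmpr1b (1.58) and Col11a1 (−2.56) kept their calls, and Brinp3 stood at −0.95 (adjusted p = 9.17e-11). Rxfp1 (−0.32, adjusted p = 0.81), 9330185C12Rik (−0.30, 0.92), Gm15584 (−0.82, 0.16) and Sgcz (−1.07, 0.075) lost theirs, as did Sox5 of the deep layer list, which stood at 0.06. The share of Calb1-rich nuclei was 4.60% ± 1.45 in WT (SD, n = 3), 2.79% ± 1.34 in PS19 (n = 3), 5.25% ± 0.456 in CLEAR (n = 4) and 5.16% ± 2.42 in CLEAR_PS19 (n = 4). It did not differ beyond the spread of libraries with the transgene (−0.951 points, exact permutation p = 0.291) or the mutation (1.51 points, exact permutation p = 0.117).

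**Figure D5:**
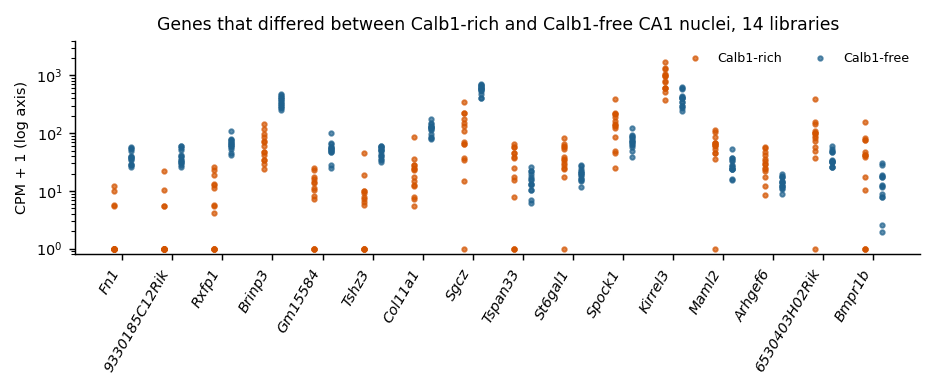
CPM + 1 (log axis) in Calb1-rich and Calb1-free CA1 nuclei of 14 libraries (points) for the 8 genes lowest and the 8 highest in Calb1-rich nuclei by the paired fit. Kirrel3 averages 902 CPM in Calb1-rich and 410.2 in Calb1-free nuclei, and Brinp3 averages 64.1 and 358.5.

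In bulk hippocampus, whose samples the gate had not used, the 4 genes of the gate were not called in PS19 mice. Against WT at 9 months the log2 fold change was 0.11 for Mpped1, −0.10 for Fibcd1, −0.27 for Wfs1 and 0.01 for Gm2115, and 0 of 4 was called by edgeR at either age, with none at an unadjusted p under 0.05. Of 11 further CA1 markers 2 were lower at 9 months, Itpka, a kinase of dendritic spines (−0.26, adjusted p = 0.0412), and the serotonin receptor Htr1a (−0.32, adjusted p = 0.0425). Of 4 superficial markers Bcl11b, a transcription factor, was lower (−0.28, adjusted p = 0.00702), and of 6 deep markers none was called. At that age 12.7% of all genes were called.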

How the data were processed

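Nuclei were profiled from frozen hippocampus with 10x 3' chemistry, per the labels' protocols. The authors deposited raw UMI counts per gene and barcode for 14 libraries and raw counts per gene for 21 bulk libraries. Cell Ranger, Seurat, STAR, featureCounts, cutadapt, DESeq2 and the build mm10 are named in the submitters' processing notes, and Cell Ranger 5.0.1 and featureCounts 2.0.0 per the file headers. Of 32285 feature identifiers 32158 matched GENCODE M21.

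The members and the gene lists were chosen with earlier results of these data known. Counts of gated nuclei were summed per library and fitted in edgeR 4.0.16 (TMM scaling, filterByExpr, quasi-likelihood test, sex as covariate, all 14 libraries in 1 fit), with limma 3.58.1 for differences between classes and DESeq2 1.42.0 as an alternative (R 4.3.3). Cells were never replicates. Comparator nuclei held at most 3 marker UMIs and at least 2 of Prox1 (granule), 3 of Iyd and Ccbe1 (CA3) or 4 of Pde11a and Dcn (ventral). Shares were tested by exact permutation of labels within the other genotype (Python 3.11.15). The labels number the replicates. Libraries of the same number deviated together between WT and PS19 (correlations 0.318, 0.364 and 0.598) and between CLEAR and CLEAR_PS19 (0.351 to 0.569), so the numbers were taken to pair the transgene comparisons. The pairing comes from these correlations and not from the labels, and such libraries also share sex and library set. The part of sex and set in them was not tested. Between backgrounds libraries of the same number did not all deviate together, nor in bulk. Libraries of other numbers correlated at −0.518 to 0.54, with 17 of 54 pairs over 0.1. CLEAR 2 and CLEAR_PS19 1 stood at 0.494 and CLEAR 1 and CLEAR_PS19 2 at 0.34. WT 2 and PS19 1 stood at 0.168 and WT 1 and PS19 2 at 0.0808. Called doublets were kept and removed as an alternative.

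The genes named are, per comparison, the 10 largest changes each way among called genes outside the gate with a mean of 10 CPM or more and no overlap of the libraries (no overlap was asked for averaged or interaction effects), the 5 smallest p-values where fewer than 3 were called, up to 4 called genes of each list (otherwise its highest), the transgene and mutation genes and the markers; for splits and classes the 8 largest each way above 20 CPM, and the 12 most variable genes. Other genes named were chosen after their values were seen. The planned Calb1 split at 2000 UMIs could not be fitted, since some libraries held no rich nucleus, and 8000 was used. Each interval and floor covers counting error at 95% only. The fits were checked on simulated counts with planted changes. Some genes of the lists count in their totals but are not reported here by name.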

Additional observations from a re-analysis of the deposited data

Results flagged for a closer look

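Within groups of 4 to 10 libraries 78 sets of values were checked for a single library far from the rest, and 8 had one, where chance gives about 1 in 20. Among barcodes with Slc17a7, CLEAR 2 held 10.9% CA1 nuclei, below the other 3 CLEAR libraries. CLEAR_PS19 3 had 20.3 CPM of Calb1 in CA1 nuclei, below the other 3 of its group (33.9 to 36.2), and 0.968 CPM of Oasl2 against 0 to 0.0874. In bulk hippocampus at 4 months PS19 replicate 3 had 85.1 CPM of Calb1, below its group. WT replicate 4 had 139.9 CPM of B2m and 18.8 of Oasl2, and PS19 replicate 4 had 77.2 of B2m, each above its group. At 9 months PS19 replicate 5 had 76.5 CPM of Oasl2, above the other 3. Without that library the bulk comparison at 9 months called 1174 genes in place of 2054.

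The effect of the tau transgene differed between CA1 and granule nuclei of the same libraries for 32 genes by a test of the difference itself (limma). It differed for 2 with the replicate number as a block, and for 1 without CLEAR 1 and 2 and CLEAR_PS19 1 and 2. The causes of these values were not tested.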

How the results depend on the processing

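Counts of called genes follow the order PS19 against WT, CLEAR_PS19 against CLEAR and the averaged transgene effect, with 22, 4 and 46 genes in the fit reported. They became 78, 15 and 90 with DESeq2, 86, 9 and 100 with no filter on low counts, 7, 2 and 14 without sex, and 56, 11 and 91 with library set as a block. The replicate number as a block gave 68, 10 and 108, and 2314, 2299 and 3870 for CLEAR against WT, CLEAR_PS19 against PS19 and the averaged mutation effect, each 1 without the block. Same-numbered libraries correlated at −0.331 to 0.598 (13 of 19 pairs over 0.1), those of other numbers at −0.518 to 0.54 (17 of 54), and in bulk same-numbered ones at −0.331 to 0.396 (4 of 10). Outside the transgene comparisons of nuclei the numbers were not taken as pairs. The cause of the counts with the block was not tested. In bulk the block gave 2119 and 5 genes at 9 and 4 months. The block left 2 genes that differed between CA1 and granule nuclei. PS19 against WT gave 6 with a marker sum of 6 or more, 10 with 2 or more, 12 without doublets and 3 without nuclei of over 4 microglia UMIs. The averaged transgene effect gave 21 with a marker sum of 6 or more, 22 without doublets, 9 without those nuclei and 24 without CLEAR 1 and 2 and CLEAR_PS19 1 and 2. CLEAR against WT gave 2 with RLE scaling, DESeq2, no filter, the library set block and a marker sum of 6 or more. CLEAR_PS19 against PS19 gave 17 with DESeq2, 10 with no filter, 3 with a marker sum of 6 or more and 2 with a sum of 2 or more, without doublets or without microglia-rich nuclei. The averaged mutation effect gave 4 with no filter and 2 without doublets, and the interaction 1 with the library set block.

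Genes that differed between CA1 and granule nuclei for the transgene numbered 94 at 10 CPM or more and 1 without the 4 libraries, and for the mutation 2 at 10 CPM or more. The Calb1 split at 3 UMIs or more called 1241, and bulk at 4 months 11 with DESeq2. Leaving out 1 library gave 3 to 49, 3 to 14 and 13 to 41 genes in the order above, 1 to 2 for CLEAR against WT, 1 to 24 for CLEAR_PS19 against PS19, 1 to 3 for the averaged mutation effect, 0 to 2 for the interaction, 12 to 34 for CA1 minus granule and 0 to 2 for CA1 minus CA3, 677 to 757 for Calb1, and 1174 to 2086 and 3 to 7 for bulk at 9 and 4 months.

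The transgene difference in the CA1 share was −0.943 of Slc17a7 barcodes and −0.0546 after thinning with a lower marker limit. It was −1.90 to −1.09 with 1 library left out. That of the mutation was 0.0651 points and turned to −1.49 of Slc17a7 barcodes, −0.289 at a marker sum of 6, −0.257 without the 4 libraries, and lay at −0.376 to 0.43 with 1 library left out. The mutation's difference in Calb1-rich nuclei was −0.0695 at 3 UMIs, and with 1 library left out the transgene gave −1.40 to −0.501 and the mutation 1.06 to 1.96. Fyb turned to −0.00618 without doublets in PS19 against WT and to −0.0149 without microglia-rich nuclei in the average, and Sox5 in the Calb1 split to 0.0578 without subiculum-marker nuclei. Of 129 called gene results named, 29 held in every alternative. Over 2983 alternatives 2011 kept the call, 969 lost it and 3 reversed. Of 48 results not called, 47 alternatives called one. The smaller gates and left-out libraries test fewer nuclei, and depth limits genes under a few CPM.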
